A study of Mus musculus with 12 samples.

Results

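The 10 genes Atf4, Ddit3, Cebpb, Trib3, Chac1, Sesn2, Asns, Phgdh, Psat1 and Shmt2 belong to the ATF4 response and to the serine synthesis pathway, and were described here in murine hip cartilage before and post injury. Every probe carrying the symbol of one of these genes was taken, which gave 19 of the 45281 probes on the array and 10 of the 15434 symbols in the normalized table. RNA was hybridized to Illumina mouse BeadChips on 12 arrays, with 3 arrays in each of 4 groups. The groups were control and injured cartilage of WT mice and control and injured cartilage of Mapk9 knockout mice (Mapk9 KO). Mapk9 is the gene of a c-Jun N-terminal kinase. All mice were C57BL6 and 4 to 6 weeks old by the sample labels, whereas the methods give 5 to 6 weeks. Injury was avulsion of the femoral epiphysis, and a replicate was a pool of 6 hips taken from 3 mice. The methods describe the replicates as independent for the control and injured sets without naming Mapk9 KO, so for those arrays the p-values measure only the spread between the samples. Control cartilage was frozen at once and injured cartilage after 4 h in serum-free culture, so injury and culture cannot be told apart. How the Mapk9 KO mice were made is not given in the sources used here.

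ATF4 is the transcription factor at the centre of the integrated stress response. Amino acid shortage, endoplasmic reticulum stress, haem shortage and viral RNA each activate a kinase that phosphorylates eIF2, which lowers general translation while translation of the Atf4 messenger goes on. ATF4, often paired with a C/EBP protein, then switches on genes for amino acid synthesis and uptake, among them the enzymes that make serine from a glycolytic intermediate, and under lasting stress it also induces Ddit3 (CHOP), a factor linked to cell death. Levels below are the deposited normalized log2 signals. They compare arrays for 1 probe and never 1 probe with another, because probes differ in brightness.

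The sequences shown first are those of 5 probes, 50 bases each, and they show what the array measured for these genes. Atf4 and Ddit3 encode transcription factors of the response, Trib3 had the largest change among the members, and the Phgdh pair gave different answers in WT. The capitals in Phgdh probe 1 mark the 16 bases that lie past an exon junction, by the coordinates in the deposited table, and the first 34 bases lie in the exon before it. The longest run shared by the Phgdh pair was 7 bases.

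Atf4 probe 1: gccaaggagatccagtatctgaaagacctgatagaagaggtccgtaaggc

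Ddit3 probe 1: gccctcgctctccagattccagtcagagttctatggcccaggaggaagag

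Trib3 probe 3: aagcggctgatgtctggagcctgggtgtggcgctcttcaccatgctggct

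Phgdh probe 1: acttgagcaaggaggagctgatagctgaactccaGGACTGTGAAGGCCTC

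Phgdh probe 2: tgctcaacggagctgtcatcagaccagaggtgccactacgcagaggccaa

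Since several members moved together, their RefSeq promoters (GRCm38.p6, 250 bases before to 50 after the start) were searched on both strands for TGATGNAA, the core of the C/EBP-ATF response element. The motif was found in 3 of the 11 member promoters (Psat1 has 2) and in 3.97% of all 32851 promoters. The cAMP response element TGACGTCA, which reads the same on both strands and shares no 8-letter match with the other motif, was found in none of the 11 and in 1.79% of all. The 3 windows of 30 bases below are written along the gene's strand, with the matched letters in capitals. Asns holds it at chr6:7693214-7693243 on the minus strand, 23 bases before the start. In Chac1, at chr2:119351038-119351067 on the plus strand, the match reads on the opposite strand and begins 193 bases before the start. In Trib3, at chr2:152344028-152344057 on the minus strand, it also reads on the opposite strand and begins 15 bases into the transcript. A match is only a description of these letters.

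Asns: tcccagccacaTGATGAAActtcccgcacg

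Chac1: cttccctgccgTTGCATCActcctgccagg

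Trib3: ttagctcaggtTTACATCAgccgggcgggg

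Mapk9, the targeted gene, was lower on every Mapk9 KO array than on every WT array of the same condition. On its brighter probe the WT control arrays lay at 10.50 to 10.90 and the Mapk9 KO control arrays at 9.14 to 9.28, a difference of -1.57 (adjusted p = 0.0151). In the injured arrays the difference was also -1.57 (adjusted p = 0.00485). On its dimmer probe the difference was -2.67 in the control arrays (limma, adjusted p = 0.00244). In the injured arrays it was -2.03 there (limma, adjusted p = 0.00892). The tissue label was checked against marker genes: 12 of 14 cartilage markers had a probe in the table and all 12 were detected in every group, while all 20 skeletal muscle markers had a probe and were detected in both control groups. The summed muscle signal (log2 of the summed linear values) was 16.30 to 17.11 in WT control, 13.45 to 15.32 in WT injured, 17.28 to 17.79 in Mapk9 KO control and 13.82 to 15.08 in Mapk9 KO injured. Of these muscle genes 17 fell in WT and 20 in Mapk9 KO, with none up, at medians of -2.77 and -4.50. For this and the marker counts that follow, at the threshold given below, 8.35% of all genes rose and 8.24% fell in WT. In Mapk9 KO 10.6% of all genes rose and 10.4% fell. Of 9 neutrophil markers 6 rose on at least 1 probe in each genotype and none fell, with main-probe medians of 0.77 in WT and 0.295 in Mapk9 KO. The summed neutrophil signal was 15.78 to 16.50 in WT control, 17.01 to 17.24 in WT injured, 16.18 to 16.65 in Mapk9 KO control and 16.71 to 17.23 in Mapk9 KO injured. None of the 9 was undetected. Of the 12 cartilage markers 7 rose and 1 had a falling probe in WT, and 8 rose in Mapk9 KO, with medians of 1.13 and 1.30. Of 6 macrophage markers 2 rose and 4 fell in WT and 2 rose and 5 fell in Mapk9 KO, counted by probe, so that a gene can stand on both sides. Falls were also seen in 3 and 4 of 7 osteoblast markers and in 1 and 2 of 4 adipocyte markers, and none of 7 erythroid markers passed. The summed erythroid signal was 15.72 to 16.52 in WT control and 16.25 to 16.58 in WT injured. It was 16.13 to 16.73 in Mapk9 KO control and 15.93 to 16.51 in Mapk9 KO injured, and none of the 7 was undetected. In such bulk tissue fewer cells of a type and less RNA per cell cannot be told apart, and the part of these changes in the results that follow was not tested.

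All but 1 of the 10 genes were upregulated past the threshold post injury in each genotype. In WT, 9 of the 10 genes passed the threshold upward (fold change above 2 and Benjamini-Hochberg adjusted p under 0.05, limma) through 15 of 18 tested probes, and 0 genes fell. Over all features 8.35% of genes and 7.55% of probes passed upward in WT. The members were chosen with earlier results of these data known, so the shares given beside their counts are a description only. In Mapk9 KO the same count of 9 genes rose through 16 of 18 probes, against 10.6% of all genes and 9.59% of all probes. In both genotypes the gene outside the count was Psat1. The median change of the 18 probes was 1.70 in WT and 2.02 in Mapk9 KO, whereas the median of all 21004 probes was -0.02 in each. With the probes undetected in the control arrays set at their lower bound the Mapk9 KO median was 1.77 and the WT median stayed 1.70. On the average of both genotypes 15 of 18 probes passed upward, against 8.06% of all probes.

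Injured and control arrays did not overlap for 16 of 18 probes in WT, where 20.3% of all probes were higher without overlap. In Mapk9 KO this held for 18 of 18 probes, against 24.5% of all probes. The exceptions in WT were Phgdh probe 1 and Shmt2 probe 2.

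**Figure D1:**
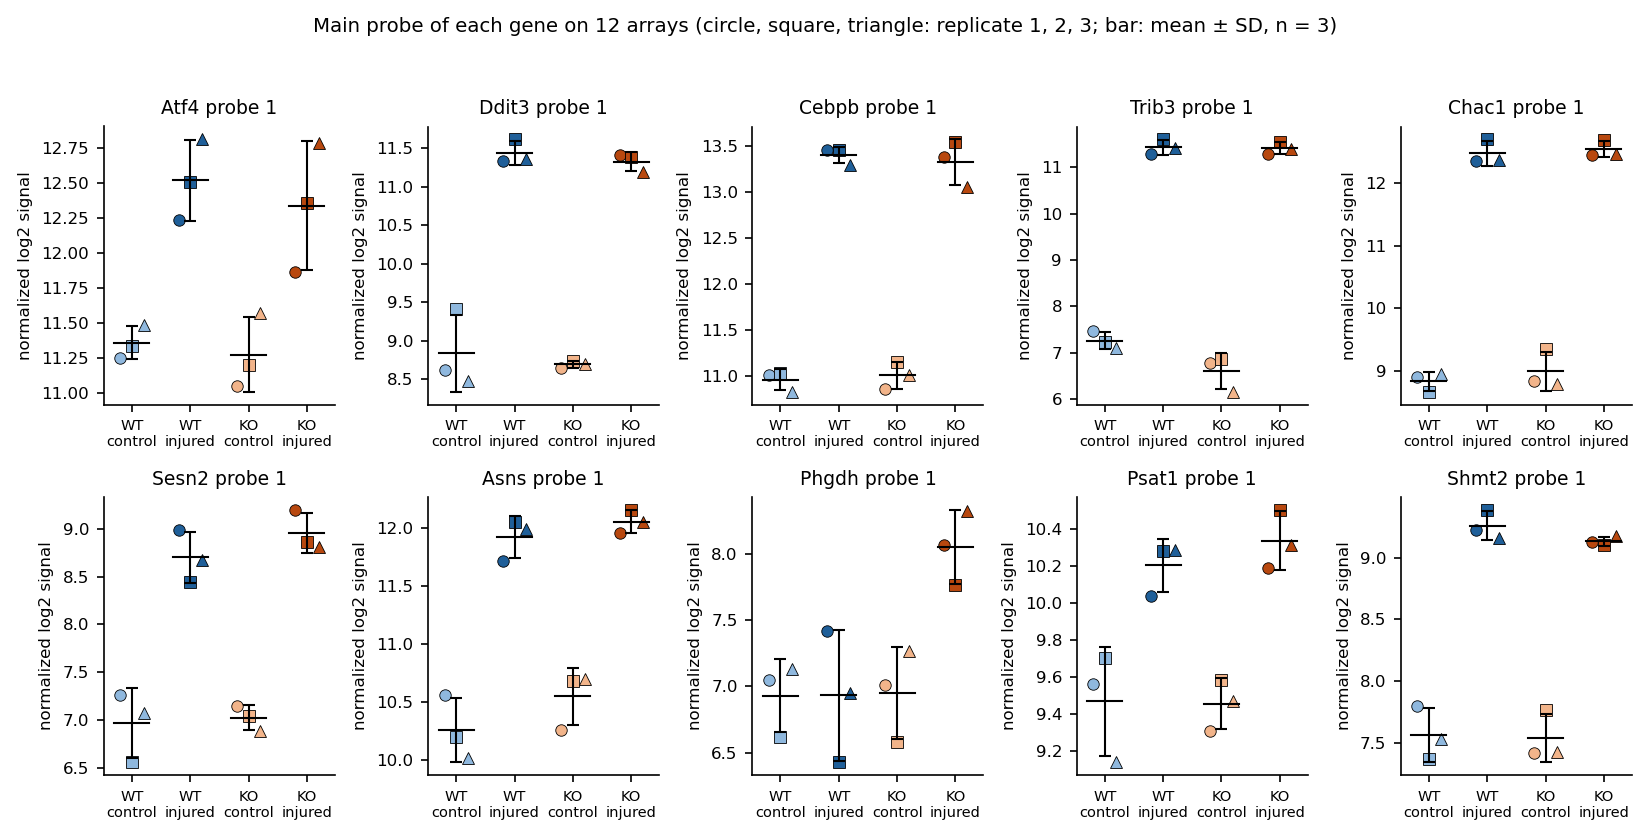
Normalized log2 signal of the main probe of each gene on the 12 arrays (y axis, scaled for each gene), by group (x axis, KO is Mapk9 KO). Points are arrays, shaped by replicate number, and bars give the mean and SD of 3 arrays. Injured arrays lie above control arrays of the same genotype for every gene except Phgdh in WT, where both means are 6.93.

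Among the transcription factors, Atf4 itself rose on both probes in both genotypes, by 2.08-fold to 4.31-fold. On Atf4 probe 1 the WT control arrays read 11.25, 11.34 and 11.49 and the WT injured arrays 12.23, 12.51 and 12.81. The change was 1.16 ± 0.21 (SE, n = 3 per group), a 2.23-fold rise with adjusted p = 0.00349. In Mapk9 KO the control arrays read 11.05, 11.20 and 11.57 and the injured arrays 11.87, 12.35 and 12.79, a change of 1.06 ± 0.25 with adjusted p = 0.00613. Replicate 3 was the highest and replicate 1 the lowest in all 4 groups. These calls of probe 1 lie close to the fold limit. In WT the change was 0.96 with normexp background correction and quantile normalization together and 0.94 with quantile normalization of uncorrected signals. In Mapk9 KO it was 0.95 without control replicate 1 and 0.83 without injured replicate 3, all under 2-fold.

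Atf4 probe 2 gave 10.22 to 10.39 in WT control and 11.80, 11.08 and 11.73 in WT injured. In Mapk9 KO it went from 9.64, 9.80 and 10.16 to 11.97, 11.91 and 12.06. The WT change was 1.23 ± 0.23 (adjusted p = 0.00411) and the Mapk9 KO change 2.11 ± 0.19 (adjusted p = 1.07e-05), so this probe was 2.34-fold and 4.31-fold higher post injury. In the control arrays it was lower in Mapk9 KO and in the injured arrays higher, without overlap in either, but neither genotype difference passed (adjusted p = 0.819 and 0.426).

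Ddit3, which encodes the stress factor CHOP, had a larger fitted change than Atf4 on each of its probes. Ddit3 probe 1 read 8.62, 9.41 and 8.48 in WT control against 11.33, 11.62 and 11.36 in WT injured. In Mapk9 KO the control arrays were closely spaced at 8.65, 8.73 and 8.69, and the injured arrays read 11.41, 11.39 and 11.18. The rise was 6.06-fold in WT (log2 2.60 ± 0.26, adjusted p = 0.000115) and 6.21-fold in Mapk9 KO (2.63 ± 0.16, adjusted p = 9.88e-07). Probe 2 of the gene rose 7.23-fold and 6.99-fold, or by 2.23 and 2.13 on the log2 scale with quantile normalization of uncorrected signals.

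Cebpb encodes C/EBPβ, a factor of inflammatory and stress signalling that can pair with ATF4. Its single probe read 11.01, 11.03 and 10.83 in WT control and 13.45, 13.45 and 13.30 in WT injured, a rise of 2.44 ± 0.19 (5.44-fold, adjusted p = 2.42e-05). In Mapk9 KO it went from 10.86, 11.15 and 11.01 to 13.38, 13.54 and 13.05, a rise of 2.32 ± 0.19 (4.99-fold, adjusted p = 5.65e-06). The spread within each group was a small part of either change.

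The largest changes were those of the feedback regulator Trib3 and of the glutathione-degrading enzyme Chac1. Trib3 encodes a pseudokinase that binds ATF4 and AKT. On Trib3 probe 1 the WT control arrays read 7.47, 7.23 and 7.10 and the WT injured arrays 11.28, 11.61 and 11.42. In Mapk9 KO the control arrays lay lower, at 6.79, 6.86 and 6.16, and the injured arrays at 11.28, 11.55 and 11.40. Injured arrays of both genotypes thus overlapped while the control arrays did not. The rise was 18-fold in WT (log2 4.17 ± 0.20, adjusted p = 1.48e-06) and 28.0-fold in Mapk9 KO (4.81 ± 0.22, adjusted p = 1.46e-07). With quantile normalization of uncorrected signals the change was smaller, 3.36 in WT and 3.76 in Mapk9 KO.

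Both other Trib3 probes were at background in most control arrays. Trib3 probe 3, whose sequence is given above, was detected on 0 of 6 control arrays and on 6 of 6 injured arrays. On the deposited values its rise was at least 5.07-fold in WT and at least 6.64-fold in Mapk9 KO. Here the control level is taken as the dimmest signal of a detected probe. Its measured means went from 4.41 to 8.19 in WT (adjusted p = 1.71e-05) and from 4.12 to 8.66 in Mapk9 KO (adjusted p = 4.74e-07). Trib3 probe 2 was detected on no Mapk9 KO control array and rose at least 7.17-fold there. In WT it was detected on 1 of 3 control arrays, so its fitted rise of 11.1-fold was taken against control values mostly at background. With quantile normalization of uncorrected signals the fitted changes were 1.62 in WT and 2.06 in Mapk9 KO for probe 3 and 1.86 and 2.07 for probe 2. These were smaller than the values and bounds above, which hold only for the deposited values, and still past the threshold.

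Chac1 encodes a γ-glutamylcyclotransferase that breaks down glutathione and is a known target of ATF4. Its probe carries an older symbol, 1810008K03Rik, in the normalized table and the symbol Chac1 in the table of unprocessed signals. It read 8.89, 8.66 and 8.94 in WT control and 12.36, 12.70 and 12.36 in WT injured. The Mapk9 KO arrays went from 8.83, 9.35 and 8.79 to 12.46, 12.69 and 12.47. The rise was 12.5-fold in WT (3.64 ± 0.20, adjusted p = 2.89e-06) and 11.7-fold in Mapk9 KO (3.55 ± 0.20, adjusted p = 4.74e-07), and replicate 2 was the highest injured array in each genotype.

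Sesn2 encodes sestrin 2, a leucine-binding protein that restrains mTORC1. Sesn2 probe 1 read 7.26, 6.56 and 7.07 in WT control, 8.98, 8.45 and 8.67 in WT injured, 7.15, 7.04 and 6.88 in Mapk9 KO control and 9.20, 8.87 and 8.81 in Mapk9 KO injured. The rise was 3.33-fold in WT (1.74 ± 0.24, adjusted p = 0.000777) and 3.82-fold in Mapk9 KO (1.93 ± 0.18, adjusted p = 1.62e-05). Sesn2 probe 2 was detected on none of the control arrays and on every injured array. On the deposited values it rose at least 1.46-fold in WT, from a measured mean of 5.0 to 6.40. In Mapk9 KO it rose at least 1.91-fold, from 4.57 to 6.87. With quantile normalization of uncorrected signals these changes were 0.49 and 0.79 and did not pass.

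Asns, the enzyme that makes asparagine and a classical readout of ATF4, rose about 3-fold in both genotypes. Asns probe 1 read 10.57, 10.20 and 10.02 in WT control and 11.71, 12.05 and 11.99 in WT injured, and it read 10.26, 10.69 and 10.70 in Mapk9 KO control and 11.96, 12.16 and 12.05 in Mapk9 KO injured. The change was 1.66 ± 0.22 in WT (3.15-fold, adjusted p = 0.000509) and 1.505 ± 0.185 in Mapk9 KO (2.84-fold, adjusted p = 0.000105). Probe 2 of the gene rose 3.28-fold and 2.88-fold. Asns probe 3 is outside the normalized table and was detected on 1 of 12 arrays (Mapk9 KO injured replicate 3), so it was not tested.

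**Figure D2:**
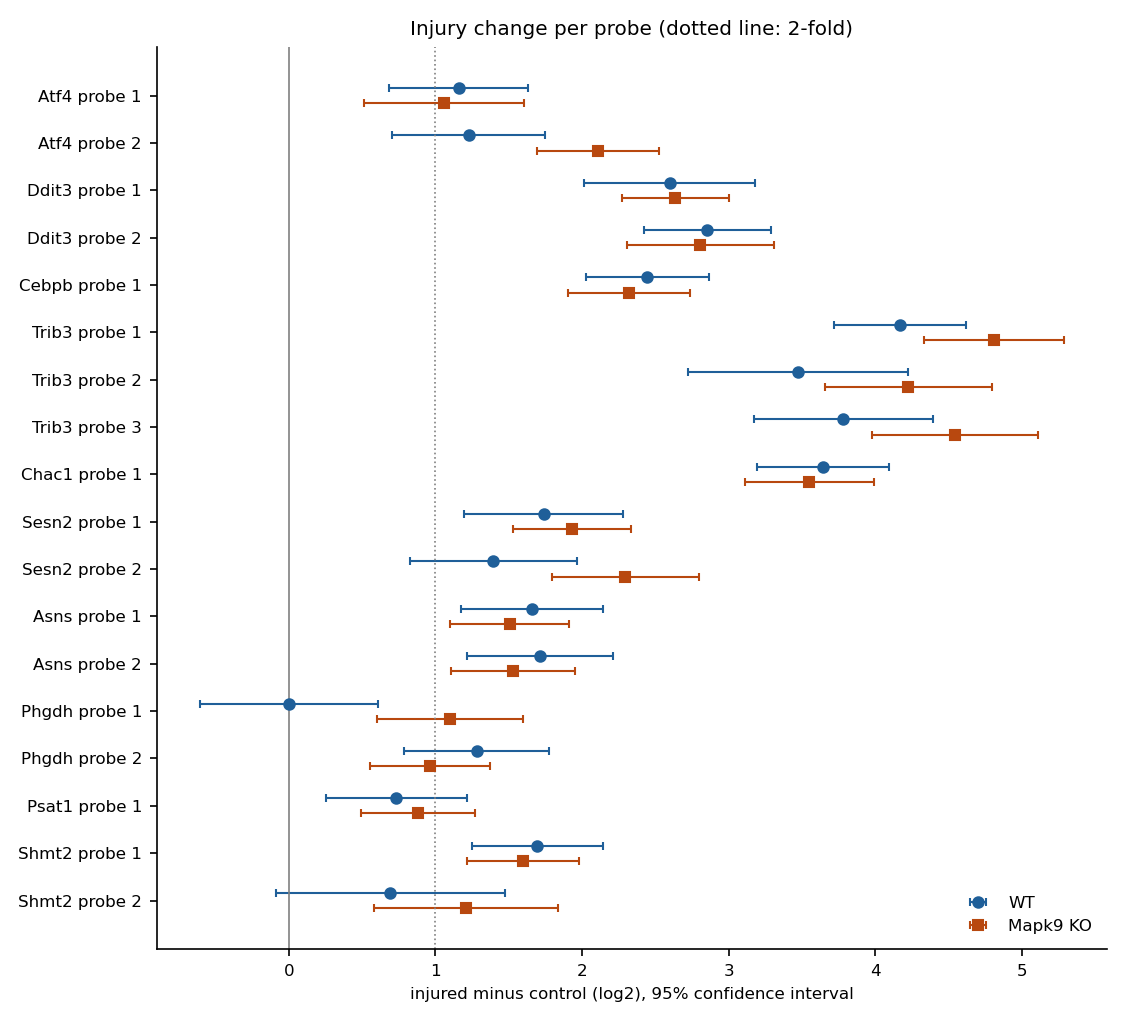
Injury change (injured minus control, log2, x axis) of the 18 probes in the normalized table, in WT (circles) and Mapk9 KO (squares), with 95% confidence intervals from limma. Trib3 probe 1 is farthest to the right at 4.17 and 4.81, Phgdh probe 1 lies at 0.00 in WT and 1.10 in Mapk9 KO, and fitted values are plotted also for Trib3 probes 2 and 3, Sesn2 probe 2 and Shmt2 probe 2, which were not detected in most control arrays.

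In the serine and glycine pathway Shmt2 rose on its brighter probe in both genotypes, Psat1 missed the fold limit, and the Phgdh probes differed in their WT call. Phgdh encodes phosphoglycerate dehydrogenase, the enzyme that takes the first step from glycolysis to serine. On Phgdh probe 1 the WT control arrays read 7.05, 6.62 and 7.13 and the WT injured arrays 7.42, 6.43 and 6.95. By replicate number the WT difference was 0.37, -0.19 and -0.18, so the direction was not shared. The mean change in WT was 0.00 with a 95% interval from -0.61 to 0.61, which leaves room for a change of up to about 1.5-fold either way. In Mapk9 KO the probe went from 7.01, 6.58 and 7.26 to 8.07, 7.76 and 8.32. That is a rise of 1.10 ± 0.22 (2.14-fold, adjusted p = 0.00292), with every injured array above every control array. The rise fell under the fold limit without control replicate 2 (0.91) or injured replicate 3 (0.96).

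Phgdh probe 2, which shares no long stretch with probe 1, behaved differently in WT. It read 6.16, 5.99 and 6.09 in WT control and 7.06, 7.29 and 7.74 in WT injured, a rise of 1.28 ± 0.22 (2.43-fold, adjusted p = 0.00252). In Mapk9 KO it went from 6.63, 6.36 and 6.64 to 7.32, 7.46 and 7.74, a change of 0.96 ± 0.19 (1.95-fold, adjusted p = 0.002) that missed only the fold limit and passed it without control replicate 1 (1.005), control replicate 3 (1.01) or injured replicate 1 (1.06). The table of unprocessed signals names this probe LOC666036, a predicted locus similar to Phgdh, so its transcript is uncertain. With quantile normalization of uncorrected signals neither call of Phgdh held, at 0.66 for probe 2 in WT and 0.69 for probe 1 in Mapk9 KO. With all arrays Phgdh counted as risen in WT through probe 2 and in Mapk9 KO through probe 1, and which of its probes passed in Mapk9 KO depended on single arrays.

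Psat1, the aminotransferase of the next step, was higher post injury by less than 2-fold. Its probe read 9.56, 9.70 and 9.14 in WT control, 10.04, 10.28 and 10.29 in WT injured, 9.31, 9.58 and 9.47 in Mapk9 KO control and 10.19, 10.50 and 10.31 in Mapk9 KO injured. The difference was 0.73 ± 0.22 in WT (1.66-fold, adjusted p = 0.0314) and 0.88 ± 0.17 in Mapk9 KO (1.84-fold, adjusted p = 0.0025). All injured arrays lay above the control arrays of their genotype. Psph, another enzyme of serine synthesis, had no probe in the normalized table and was not tested.

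Shmt2, the mitochondrial enzyme that converts serine to glycine and feeds the folate cycle, rose on its brighter probe. Shmt2 probe 1 read 7.80, 7.37 and 7.53 in WT control and 9.23, 9.39 and 9.16 in WT injured. The Mapk9 KO arrays went from 7.42, 7.76 and 7.43 to 9.12, 9.10 and 9.17. The rise was 3.24-fold in WT (1.69 ± 0.20, adjusted p = 0.000292) and 3.02-fold in Mapk9 KO (1.596 ± 0.173, adjusted p = 4.41e-05).

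Shmt2 probe 2 was dim, detected on 1 control array in each genotype, on 2 WT injured arrays and on 3 Mapk9 KO injured arrays. Its WT groups overlapped, with a change of 0.69 ± 0.35 (adjusted p = 0.18). In Mapk9 KO it rose by 1.21 ± 0.28 (adjusted p = 0.00641), taken against a control level mostly at background. Replicate 2 was the lowest array in all 4 groups on this probe. The Mapk9 KO call was lost without injured replicate 3, where the change was 0.96, and with quantile normalization of uncorrected signals, where it was 0.54, and a WT call appeared without injured replicate 2, where it was 1.06.

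**Figure D3:**
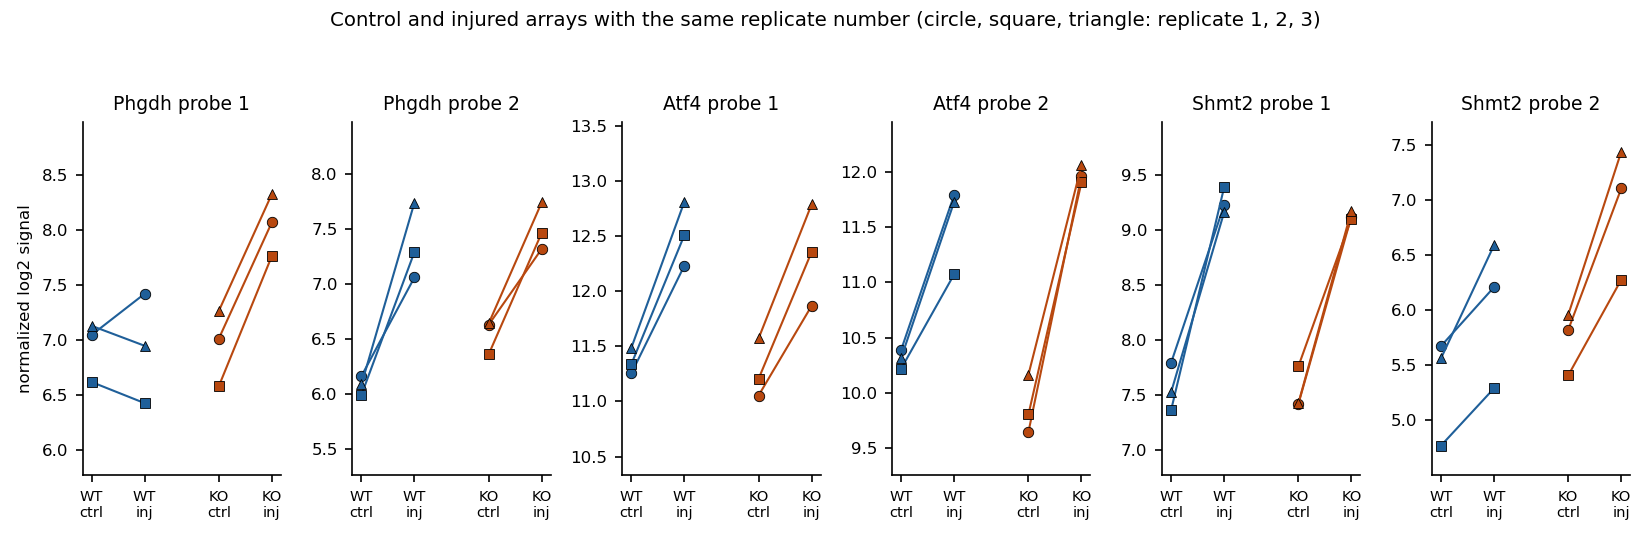
Normalized log2 signal (y axis, 3.2 log2 units in every panel) of the Phgdh, Atf4 and Shmt2 probes in control and injured cartilage, with lines joining arrays of the same replicate number in WT and Mapk9 KO. The WT lines of Phgdh probe 1 go up by 0.37 and down by 0.19 and 0.18, while all 3 Mapk9 KO lines go up.

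Between genotypes, no member differed past the threshold. In the control arrays 0 of 18 probes passed (limma, adjusted p under 0.05 with the fold limit), against 0.119% of all probes. At an unadjusted p under 0.05 there were 2 of 18, against 6.46% of all probes. These were Trib3 probe 1, lower in Mapk9 KO by a log2 difference of -0.66 (adjusted p = 0.664), and Phgdh probe 2, higher by 0.46 (adjusted p = 0.75). In the injured arrays 0 of 18 passed, against 0.181% of all probes, and 3 of 18 had an unadjusted p under 0.05, against 12.6% of all probes. Trib3 probe 3 was higher in Mapk9 KO by 0.48 (adjusted p = 0.33) and Shmt2 probe 2 by 0.91 (adjusted p = 0.346). The widest difference was that of Phgdh probe 1, which was 1.12 ± 0.26 higher in Mapk9 KO, without overlap (adjusted p = 0.191, limma). Without WT injured replicate 1, the highest WT injured array, it passed. The median of the muscle markers was 1.43 higher in Mapk9 KO control than in WT control, with 0 of 20 past the threshold, and its part in these differences was not tested.

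The interaction, which tests whether the injury change itself differed between genotypes, passed for 0 of 18 member probes and for 0.0% of all probes. An unadjusted p under 0.05 was reached by 4 of 18 member probes, against 9.94% of all probes. For 3 of them the change was larger in Mapk9 KO, namely Phgdh probe 1 with a difference of changes of 1.10 ± 0.37 (limma, adjusted p = 0.368), Atf4 probe 2 with 0.88 ± 0.29 (adjusted p = 0.361) and Trib3 probe 1 with 0.64 ± 0.29 (adjusted p = 0.484). The other was Sesn2 probe 2, which was not detected on any control array, so that its changes are only bounds and no difference between them is given. With the replicate number as a block the adjusted p for Phgdh probe 1 was 0.0667, the lowest among the members. The other probe of Phgdh gave -0.32, with a 95% interval from -0.92 to 0.28. For the single probe of Cebpb the interval was -0.65 to 0.40 and for Chac1 it was -0.68 to 0.49, so differences between genotypes of up to about 1.6-fold were within the error.

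Beyond the members, 14 of 22 other ATF4 target genes with a probe in the table rose in WT on at least 1 probe and 15 in Mapk9 KO, against 8.35% and 10.6% of all genes, with main-probe medians of 1.19 and 1.15. The lists described here were compiled with earlier results of these data known. Atf3, a repressor of the same family, had the largest change among them, from 4.68 to 5.25 in WT control arrays, where it was not detected, to 10.19 to 10.61 in WT injured, a rise of at least 22.6-fold (adjusted p = 9.97e-07). The rise in Mapk9 KO was at least 18.7-fold. The secreted stress factor Gdf15 rose at least 11.1-fold and 8.45-fold, and the hormone Fgf21 at least 2.44-fold and 1.97-fold. Ddit4 (REDD1), an mTORC1 inhibitor, rose by 2.87 ± 0.23 in WT and 2.83 ± 0.20 in Mapk9 KO. In WT 1 gene had a probe that fell, Vldlr, named after its values were seen, against 8.24% of all genes; its main probe changed by -0.17 (adjusted p = 0.623). This count was 2 without control replicate 2 and 0 without control replicate 1 or 3 or injured replicate 2 or 3.

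Of 11 amino acid transporters linked to the response 6 rose in each genotype, against 8.35% and 10.6% of all genes. None fell past the threshold, against 8.24% of all genes in WT and 10.4% in Mapk9 KO. The medians were 1.04 in WT and 1.25 in Mapk9 KO, or 0.54 and 0.79 with undetected probes at their bound. The cystine carrier Slc7a11 rose at least 11.5-fold in WT (adjusted p = 3.52e-06). In Mapk9 KO it was detected on 1 of 3 control arrays, and the fitted change of 3.64 ± 0.24 rests on a control level mostly at background. Slc7a3, a cationic amino acid carrier, rose at least 9.01-fold in Mapk9 KO. Its fitted change of 2.85 ± 0.30 in WT was likewise taken against a control level detected on 1 of 3 arrays, so the genotypes are not compared for it. Slc3a2, the heavy chain shared by several carriers, rose at least 1.44-fold and 1.48-fold. Its light chain Slc7a5 rose by 1.80 ± 0.21 and 1.79 ± 0.18. Slc43a1, named after its values were seen, lay lower post injury without overlap in WT, at -0.96 (adjusted p = 0.0102), and at -0.80 (adjusted p = 0.0163) in Mapk9 KO, and missed only the fold limit. The count of falling transporters in WT was 1 with normexp and quantile normalization together and when control replicate 3 or injured replicate 1 was left out.

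Of 13 further serine, glycine and one-carbon enzymes with a probe, 2 rose in each genotype, against 8.35% of all genes in WT and 10.6% in Mapk9 KO, and the medians were 0.09 in WT and -0.19 in Mapk9 KO. Mthfd2, a mitochondrial folate enzyme that is also in the ATF4 target list, rose by 1.68 ± 0.21 in WT and 1.70 ± 0.19 in Mapk9 KO. Gldc, the glycine decarboxylase, rose by 1.14 ± 0.34 (adjusted p = 0.0322) and 1.69 ± 0.25 (adjusted p = 0.000413). The gene with a falling probe was Srr (serine racemase) in both genotypes, named after its values were seen, on 1 of its 4 probes, while its main probe changed by 0.09 and -0.09. Over all genes 8.24% fell in WT and 10.4% in Mapk9 KO. The WT counts of this list rest on few genes. The count of rises was 1 when WT control replicate 2 or 3 or WT injured replicate 1 or 2 was left out, and the count of falls was 2 when control replicate 1 or 2 or injured replicate 1 was.

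Upstream of ATF4, 1 of 6 sensors and eIF2 feedback genes rose in each genotype (here and for the families that follow, 8.35% of all genes rose in WT and 10.6% in Mapk9 KO), which was Ppp1r15b, a phosphatase subunit that reverses eIF2 phosphorylation, by 1.35 ± 0.20 in WT and 1.62 ± 0.19 in Mapk9 KO. Of the eIF2 kinases, named after their values were seen, Eif2ak1, Eif2ak2 and Eif2ak3 changed by -0.18, -0.60 and -0.71 in WT and by -0.80, -0.93 and -0.22 in Mapk9 KO. None passed, and Eif2ak1 (adjusted p = 0.00886) and Eif2ak2 (adjusted p = 0.00455) missed only the fold limit in Mapk9 KO. The kinase gene Eif2ak4 had no probe in the normalized table and was not tested. The feedback gene Ppp1r15a, also named after its values were seen, was higher post injury in WT by 0.84 ± 0.26, without overlap. It missed only the fold limit there (limma, adjusted p = 0.0361). In Mapk9 KO its change was 0.50 ± 0.19 (limma, adjusted p = 0.0622). In the C/EBP family 2 of 4 rose in each genotype, Cebpe by 2.15 ± 0.28 in WT and 1.33 ± 0.22 in Mapk9 KO, and Cebpg, a partner of ATF4, by 1.11 ± 0.21 and 1.20 ± 0.17. Cebpe is a myeloid factor, and 6 of the 9 neutrophil markers described above also rose; their part in its change was not tested. In the ATF/CREB family 4 of 13 rose in each genotype, where Atf3 was joined by Creb3l2 with 2.84 ± 0.35 and 2.98 ± 0.16, Crem with 1.48 ± 0.18 and 1.76 ± 0.23, and Atf5 with 1.40 ± 0.24 and 1.39 ± 0.19. Atf3, Atf5 and Cebpg are also in the ATF4 target list, so their rises were already counted there. Falls past the threshold in this family were 0 in WT and 2 in Mapk9 KO (Creb3l1 and Creb3l3, named after their values were seen), where 10.4% of all genes fell. Among 3 paralogs of members with a probe none rose, and Sesn1, also named after its values were seen, changed by -0.72 ± 0.22 in WT, which missed the fold limit, and fell in Mapk9 KO by 1.08 ± 0.19. These small counts moved with single arrays and with the processing. With quantile normalization of uncorrected signals no sensor or feedback gene rose in WT and 0 genes of the ATF/CREB family fell in Mapk9 KO, and the C/EBP family had 1 rise in WT under either quantile setting. In WT, rises of the sensors and feedback genes became 2 without control replicate 2, those of the C/EBP family 1 without control replicate 3, and falls of the ATF/CREB family 1 without control replicate 1 or 2 or injured replicate 1. The fall among the paralogs was lost without Mapk9 KO control replicate 1 or injured replicate 3, and 1 appeared in WT without control replicate 3. A fall among the sensors and feedback genes appeared without Mapk9 KO control replicate 3 or injured replicate 2.

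**Figure D4:**
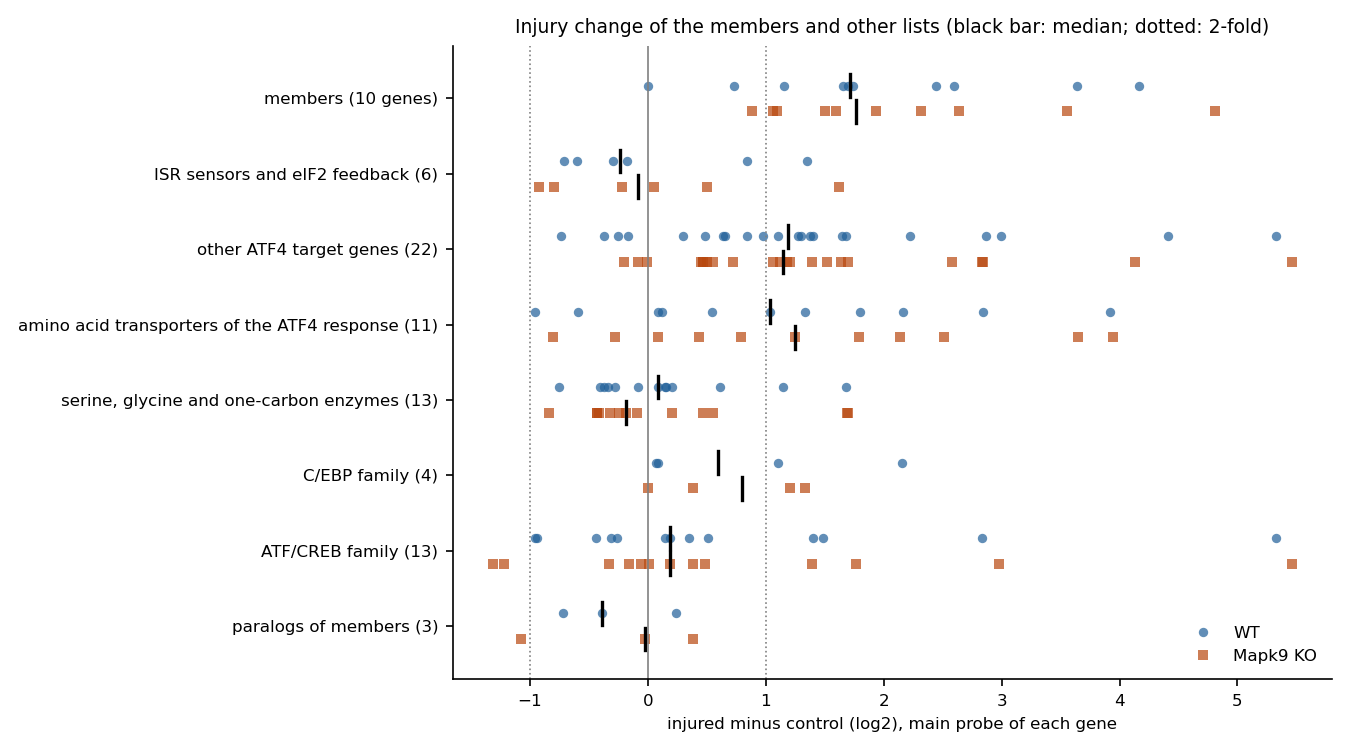
Injury change (injured minus control, log2, x axis) of the main probe of each gene in the members and in 7 related lists (y axis, number of genes with a probe in parentheses), in WT (circles) and Mapk9 KO (squares), with the median as a black bar. Fitted values are plotted also for undetected probes. The fitted medians of ATF4 targets and transporters lie above 1 (transporters at 0.54 and 0.79 with undetected probes at their bound), while those of the serine, glycine and one-carbon enzymes lie at 0.09 and -0.19.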

How the data were processed

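The authors deposited unprocessed bead intensities of 45281 probes, each with a detection p-value. From these they subtracted a background measured on negative controls, applied vsn normalization, and deposited the resulting log2 values of 21004 probes. The version of vsn and the genome build are not given in the sources used here. A probe was called detected where its detection value was under 0.05. Arrays had 16930 to 18969 detected probes and correlated at 0.868 to 0.986, with no identical pair, and their number limits the precision.

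The log2 values were tested with limma 3.58.1 (lmFit, eBayes, R 4.3.3), with adjustment over all probes. Injury and genotype contrasts used the 6 arrays concerned, and the interaction and average used all 12. The main probe of a gene had the highest mean. All member probes, and from each list at most the 4 largest rises and 4 largest falls past the threshold in WT without overlap, were named, and genes named outside this rule are marked as such. The members and lists were chosen with earlier results of these data known. Where a probe was not detected on any array of a group, the fold is a lower bound against the dimmest detected probe of each array. Such a bound holds for the deposited values, and other processing can give a smaller change. Of the probes in the normalized table, 4200 are named differently in the other table.

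Replicate numbers come from the labels. Deviations from the group means correlated at 0.153 to 0.390 over the 18 pairs of arrays with the same number. Over the 36 other pairs they correlated at -0.289 to 0.0825. Deviations cancel within a group, which lowers the correlation of the other pairs. Pairs with the same number include WT with Mapk9 KO arrays, so paired samples and a shared batch cannot be told apart. The main fits were unpaired, and the replicate number was used only as a block in an alternative. Alternatives were the replicate block, a block by the digit of the label code, normexp with quantile normalization (offset 16), quantile normalization without background correction, subtracted medians, a filter for detection on 3 or more arrays, a joint fit of all 12, the methods' t-test, no fold limit, the main probe alone and each array left out. The scripts were tested on simulated data.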

Additional observations from a re-analysis of the deposited data

How the results depend on the processing

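With the replicate number as a block the count of member genes past the threshold was 9 in WT and 9 in Mapk9 KO. It was 0 for both genotype comparisons and the interaction, and the block changed no call of a member. In the serine, glycine and one-carbon list 2 genes in place of 1 had a falling probe in WT with the block. In that list 1 gene in place of 2 rose in WT under the methods' t-test and with quantile normalization of uncorrected signals. Leaving out 1 array at a time gave 9 genes in WT, 8 to 9 in Mapk9 KO, 0 for genotype in the control arrays, 0 to 1 for genotype in the injured arrays (1, Phgdh, without WT injured replicate 1) and 0 for the interaction. Phgdh was lost in Mapk9 KO without control replicate 2 (probe 1 at 0.91) or injured replicate 3 (0.96), in both genotypes with quantile normalization of uncorrected signals (8 genes each) and in WT with the main probe alone (8 genes). The WT change of Phgdh probe 1 ranged from -0.24 to 0.25 over the left-out arrays, and its sign turned in 3 of 6. Atf4 probe 1 fell under the fold limit in WT with normexp and quantile normalization (0.96) and with quantile normalization of uncorrected signals (0.94), and in Mapk9 KO with the latter (0.99), without control replicate 1 (0.95) or injured replicate 3 (0.83); Atf4 probe 2 kept its call in these. The quantile settings replaced both the background step and the vsn normalization. Under the methods' t-test 13 probes passed in WT and 14 in Mapk9 KO, from the same 9 genes, with calls lost in WT for Atf4 probe 2 (adjusted p = 0.0533) and Sesn2 probe 2 (0.0613) and in Mapk9 KO for Atf4 probe 1 (0.0763) and Shmt2 probe 2 (0.092). Shmt2 probe 2 passed in WT without injured replicate 2 (1.06). The Vldlr probe did not pass under most alternatives. Phgdh probe 2 passed in Mapk9 KO without control replicate 1 or 3 or injured replicate 1, and its change ranged from 0.85 to 1.06 over the left-out arrays. Dim probes limit the folds of Trib3 probes 2 and 3, Sesn2 probe 2 and Shmt2 probe 2.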
